A study of Mus musculus with 8 samples.

Results

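The genes described here make, use up or break down phosphoethanolamine and phosphocholine, the phosphorylated head groups from which the membrane lipids phosphatidylethanolamine and phosphatidylcholine are built. They are 9 of the 24060 rows of the deposited count table, taken by symbol: the kinases Etnk1, Chka and Chkb, the cytidylyl transferases Pcyt2, Pcyt1a and Pcyt1b, the phosphotransferase Cept1, the methyltransferase Pemt and the phospholyase Etnppl. All 9 passed the filter on low counts and were among the 15186 genes tested. They were chosen by pathway with the bigenic-to-control fold changes and p already known, Etnppl having been among the higher genes with the smallest p, so the values of these 9 genes in that comparison are a description and no p is given for them.

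RNA was sequenced from whole cerebellum of 4 bigenic mice, which carried CalExflox together with Aldh1l1-Cre/ERT2, and of 4 control mice, which carried CalExflox alone. CalExflox is an allele that makes a calcium-extruding pump of the plasma membrane once Cre has acted, and Aldh1l1-Cre/ERT2 is a tamoxifen-dependent Cre directed to astrocytes by Aldh1l1. Mice of both groups were given 1 dose of tamoxifen (75 mg/kg) and their tissue was taken on day 5 after it. Cre was present in the bigenic group alone, so the effects of Cre and of the pump cannot be told apart, and sex, age and hour of collection are not given in the sources used here. Each library came from a mouse of its own, and counted reads ranged from 35208460 to 38293012 per library. Control libraries 2 and 3 stood apart from the other 6 by high choroid plexus markers, and values without them are given beside the results they touch.

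In the route named after Kennedy, ethanolamine and choline taken up by a cell are first phosphorylated by kinases. The phosphorylated bases are then joined to cytidine nucleotides by cytidylyl transferases, the step regarded as rate-limiting, and a phosphotransferase of the endoplasmic reticulum or Golgi finally moves the head group onto diacylglycerol. Pemt makes phosphatidylcholine by another way, methylating phosphatidylethanolamine, and is best known from liver. Etnppl leads out of the pathway: it is a pyridoxal phosphate enzyme that splits phosphoethanolamine into acetaldehyde, ammonia and phosphate, and in brain it is known as a gene of astrocytes.

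Among the 9 genes, Etnppl, Chka and Chkb were higher in bigenic than in control cerebellum, Cept1 was lower, and the other 5 were not past the threshold, an adjusted p under 0.05 by the quasi-likelihood test of edgeR over all genes. Over all genes tested, 21.4% were past it as higher and 22.9% as lower in bigenic tissue, so nothing is read from the count of 3 higher and 1 lower. The median log2 fold change of the 9 genes was 0.08, against -0.004 over all genes. The 4 genes past the threshold were also those whose bigenic and control libraries did not overlap in CPM (reads per 1e+06 counted reads, after scaling by the trimmed mean of M-values, TMM), which held for 19.4% of all genes as higher and 21.4% as lower. They lie at different steps: 1 in breakdown, 2 in the first phosphorylation and 1 in the last transfer.

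The start regions of the 4 genes Etnppl, Chka, Cept1 and Pcyt1a are shown because they stand for the gene that leads out of the pathway, the kinase, the last enzyme, and a cytidylyl transferase that did not pass the threshold. Each runs from 250 bases before to 50 bases after an annotated start of transcription (RefSeq, GRCm38.p6), 5′ to 3′ on the gene's strand, and capitals mark the motifs GGGCGG (the Sp1 box) and CCAAT on either strand. They lie at chr3:130617198-130617497 (plus strand) for Etnppl, chr19:3851523-3851822 (plus strand) for Chka, chr3:106547753-106548052 (minus strand) for Cept1 and chr16:32430671-32430970 (plus strand) for Pcyt1a.
Etnppl: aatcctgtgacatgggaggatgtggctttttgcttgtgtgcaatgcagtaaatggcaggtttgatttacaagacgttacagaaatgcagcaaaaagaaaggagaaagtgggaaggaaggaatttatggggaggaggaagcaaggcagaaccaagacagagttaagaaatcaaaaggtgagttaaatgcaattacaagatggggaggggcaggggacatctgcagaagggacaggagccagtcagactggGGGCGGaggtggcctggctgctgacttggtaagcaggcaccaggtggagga
Chka: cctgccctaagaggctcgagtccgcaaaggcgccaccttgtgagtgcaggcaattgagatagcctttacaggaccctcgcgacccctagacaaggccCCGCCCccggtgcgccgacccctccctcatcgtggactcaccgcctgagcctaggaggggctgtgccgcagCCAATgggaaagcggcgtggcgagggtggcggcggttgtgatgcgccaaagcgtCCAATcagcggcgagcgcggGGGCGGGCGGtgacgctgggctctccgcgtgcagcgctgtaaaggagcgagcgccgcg
Cept1: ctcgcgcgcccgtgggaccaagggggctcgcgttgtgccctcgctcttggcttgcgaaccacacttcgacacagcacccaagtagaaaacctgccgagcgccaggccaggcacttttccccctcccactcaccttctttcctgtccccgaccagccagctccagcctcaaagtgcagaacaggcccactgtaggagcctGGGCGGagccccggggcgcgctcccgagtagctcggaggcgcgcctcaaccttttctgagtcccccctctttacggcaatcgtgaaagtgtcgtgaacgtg
Pcyt1a: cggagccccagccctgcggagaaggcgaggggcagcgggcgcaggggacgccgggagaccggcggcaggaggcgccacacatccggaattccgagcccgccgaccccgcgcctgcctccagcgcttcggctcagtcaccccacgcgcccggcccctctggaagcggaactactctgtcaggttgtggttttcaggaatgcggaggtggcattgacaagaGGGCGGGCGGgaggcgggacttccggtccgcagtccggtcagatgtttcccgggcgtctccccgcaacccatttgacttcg

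These starts differed in base composition. The Etnppl region held 2 CpG sites at 49.3% GC, with an observed over expected CpG ratio of 0.14, whereas the Chka region held 33 CpG sites at 68.7% GC (ratio 0.94), the Cept1 region 24 at 64.0% GC (ratio 0.80) and the Pcyt1a region 33 at 69.7% GC (ratio 0.91). Etnk1, on chromosome 6, was of the CpG-rich kind as well, with 38 sites and a ratio of 0.94. Pcyt1b and Pemt were of the other kind, with 2 and 3 CpG sites in the first start listed and ratios of 0.15 and 0.19, and the median over all 32851 start regions was a ratio of 0.38 at 52.7% GC. Starts of the same gene could differ: another start of Cept1 held 0 CpG sites at 27.3% GC, and the second of Pcyt1b held 9 (ratio 0.42). Chkb held 14 sites at 51.7% GC (ratio 0.72). The members that were higher in bigenic tissue thus included CpG-poor and CpG-rich starts.

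A region was found for 8 of the 9 genes (15 starts in all), the exception being Pcyt2. GGGCGG was found in at least 1 start of Etnppl, Etnk1, Chka, Chkb, Cept1 and Pcyt1a, and in 35.66% of all start regions. The shares given here are per start region, whereas a gene is listed if any of its starts holds the motif, so they are not like measures. Windows of the same gene could also overlap and hold the same site, as in Etnppl and Pcyt1a. In Chka GGGCGG was found 3 times, on the minus strand from base -153 and, as overlapping matches on the plus strand, from bases -8 and -4 relative to the start of transcription. CCAAT was found in Chka, Chkb, Pcyt1b, Pemt and 1 start of Cept1, and in 37.41% of all start regions. TATAAA was found in Chkb alone of these genes, from base -109, and in 13.62% of all start regions. The other motifs searched on both strands, CACGTG (7.15% of all start regions) and the palindromic glucocorticoid response element (0.47%), were in none of the 15 windows.

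Etnppl (ENSMUSG00000019232.14, chromosome 3, 130617448 to 130637521, plus strand, no exon shared with another annotated gene) was at 260.2, 238, 319 and 296 CPM in the bigenic libraries (1 to 4), against 97.7, 81.9, 92.2 and 96.4 CPM in the control libraries (1 to 4). The lowest bigenic library was far above the highest control, and the controls lay close together. The means were 278 ± 36.1 CPM in bigenic mice and 92.1 ± 7.15 CPM in control mice (SD, n = 4 each), a 3.02-fold difference and a log2 fold change of 1.60 ± 0.10 (SE). Over 18 other settings and omissions of libraries the log2 fold change lay between 1.48 and 1.66.

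Of 15 astrocyte markers, all tested, 9 were higher in bigenic tissue, as Etnppl was, Aqp4 was lower at -0.48, and Gfap, Slc1a3, S100b, Sox9 and Mlc1 were not past the threshold. Among the 9 was Aldh1l1 at 0.475 ± 0.07 (SE), the gene that also directs the Cre of the bigenic group. A part of the transgene in its count was not tested. The markers had a median log2 fold change of 0.27, and their summed level ranged from 13598 to 15313 CPM in bigenic and from 10876 to 11383 CPM in control libraries. The largest term of this sum was Aldoc, with means of 4275 CPM in bigenic and 3412 CPM in control mice. Whether the RNA of Aldoc came from astrocytes alone was not tested. No marker was listed at 0 in every library. The log2 fold change of Etnppl was above that of all 15, the nearest being Gjb6, connexin 30, at 1.23 ± 0.08 (SE). Etnppl was chosen with this comparison known, so nothing is read from its rank. Set against the summed markers of the same library, Etnppl came to 1.86%, 1.75%, 2.08% and 2.13% in bigenic libraries 1 to 4, against 0.862%, 0.720%, 0.813% and 0.887% in control libraries 1 to 4. In bulk tissue, a change in the number of cells of a type and a change in RNA per cell cannot be told apart. The part of the astrocyte RNA in the level of Etnppl was not tested beyond these values.

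**Figure D1:**
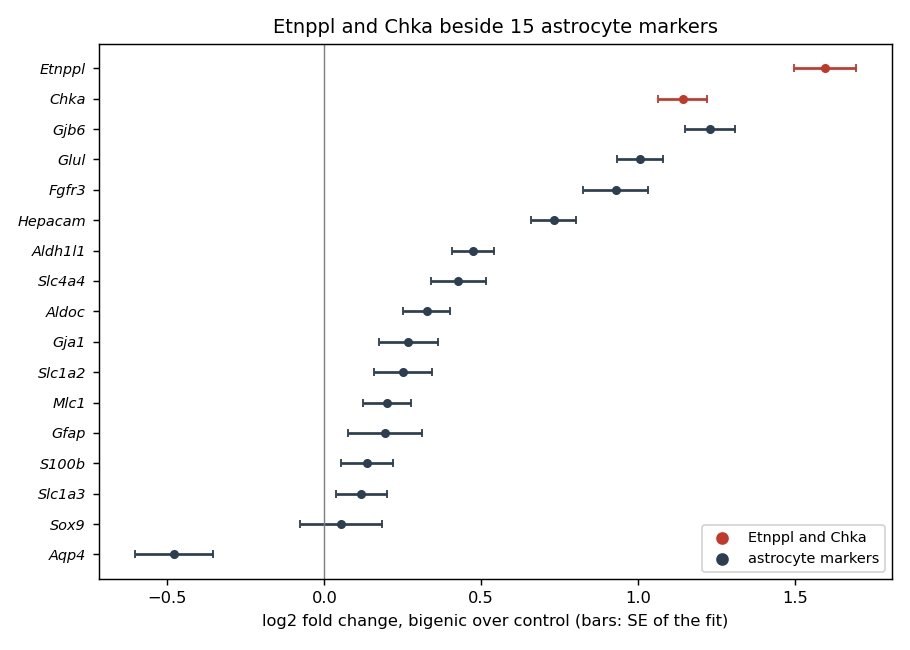
Log2 fold change of bigenic over control cerebellum (x axis) for Etnppl and Chka and for 15 astrocyte markers, with the standard error of the fit as bars. Etnppl at 1.60 lies to the right of every marker, Chka at 1.14 lies below Gjb6 at 1.23, and Aqp4 at -0.48 is the marker on the other side of 0. Etnppl and Chka were chosen with this comparison known.

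Of the kinases that open the route, Chka and Chkb were higher and Etnk1 did not pass the threshold. Chka (ENSMUSG00000024843.15, chromosome 19, 3851773 to 3894369, plus strand), which encodes choline kinase alpha and can also phosphorylate ethanolamine, was at 101, 109, 109 and 107 CPM in the bigenic libraries (1 to 4), against 53.3, 49.7, 45.4 and 44.7 CPM in the control libraries (1 to 4). The bigenic libraries lay within a narrow band, all above every control. The means were 107 ± 3.91 CPM in bigenic mice and 48.3 ± 4.00 CPM in control mice (SD, n = 4 each), a 2.21-fold difference and a log2 fold change of 1.14 ± 0.08 (SE). Antisense transcripts cover 0.6% and 1.4% of its exonic bases, and whether the counting used strand is not given in the sources used here.

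Chkb (ENSMUSG00000022617.15, chromosome 15, 89426360 to 89429908, minus strand), which encodes choline kinase beta, was counted at a far lower level. It had 102, 75, 76 and 82 reads in bigenic libraries 1 to 4, or 2.91, 2.03, 2.27 and 2.28 CPM, against 52, 62, 32 and 47 reads in control libraries 1 to 4, or 1.40, 1.59, 0.886 and 1.17 CPM. The groups did not overlap, but the lowest bigenic and the highest control library were near each other. The log2 fold change was 0.91 ± 0.22 (SE), the widest error of the 9 genes. With the level of Ttr, a choroid plexus gene, as a covariate it was 0.99 ± 0.36 (SE) and no longer past the threshold, and on log2(FPKM + 1), a scale that understates low genes, it was 0.39. In GENCODE M21, 50.7% of the exonic bases of Chkb also belong to Gm44502 on the same strand. The count table has no row under that name, so whether this overlap touched the count of Chkb is not known.

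Etnk1 (ENSMUSG00000030275.6, chromosome 6, 143167221 to 143232307, plus strand), the ethanolamine kinase, was at 268, 299.96, 287 and 273 CPM in the bigenic libraries (1 to 4), against 308, 289.9, 279 and 288 CPM in the control libraries (1 to 4). The groups overlapped in part, with bigenic libraries 1 and 4 below every control and control library 1 above every bigenic library. The log2 fold change was -0.05 ± 0.07 (SE). On the length-scaled FPKM, Etnk1 was 1.11, 1.15, 1.10 and 1.06 times the level of Chka in bigenic libraries 1 to 4, against 2.41, 2.44, 2.57 and 2.69 times in control libraries 1 to 4. On this scale Etnk1 and Chka were thus at nearly the same level in bigenic tissue and clearly apart in control tissue. That closeness depends on the fixed length used per gene, 6434 bases for Etnk1 and 2687 for Chka. The change of the ratio between the groups does not. The ratio of Chka to Chkb ran from 24.8 to 38.6 in bigenic and from 22.4 to 36.6 in control libraries, ranges that overlapped.

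**Figure D2:**
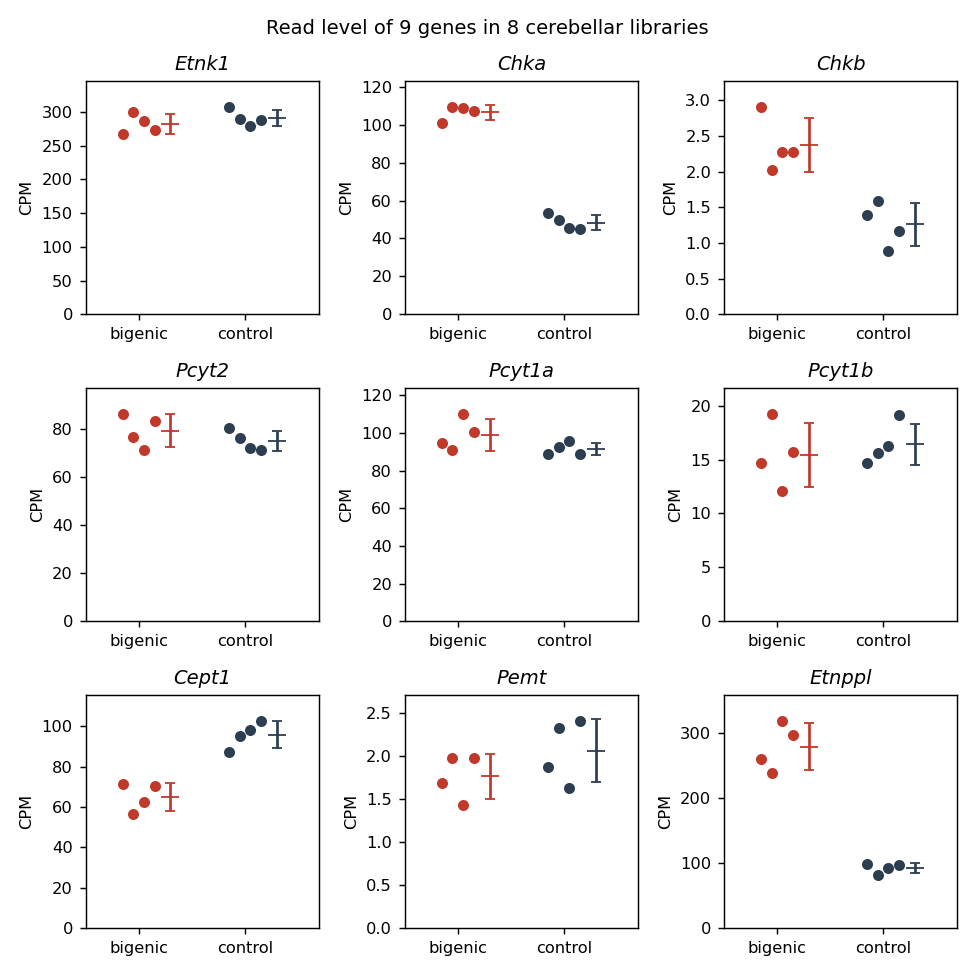
CPM (y axis, from 0, scaled by TMM) of the 9 genes in bigenic (left) and control (right) libraries, 1 point per mouse, with the mean and SD beside the points. The groups stand apart for Chka, Chkb, Cept1 and Etnppl and overlap for the other 5 genes.

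None of the 3 cytidylyl transferases passed the threshold. Pcyt2, the enzyme of the ethanolamine branch (chromosome 11, 120610087 to 120617936, minus strand), had 86.5, 76.8, 71.3 and 83.5 CPM in the bigenic libraries (1 to 4), against 80.4, 76.3, 72.4 and 71.3 CPM in the control libraries (1 to 4), with a log2 fold change of 0.08 ± 0.08 (SE). Pcyt1a, the alpha enzyme of the choline branch (chromosome 16, 32430921 to 32475070, plus strand), was at 94.6, 91.0, 110.3 and 100.4 CPM in the bigenic libraries (1 to 4), against 88.9, 92.6, 95.9 and 88.7 CPM in the control libraries (1 to 4), with a log2 fold change of 0.11 ± 0.08 (SE). In both genes the groups overlapped. With library size alone as the scaling, the log2 fold change of Pcyt2 was -0.0011.

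Pcyt1b, the beta enzyme (chromosome X, 93654863 to 93749951, plus strand), was the most variable of these enzymes within a group, at 14.7, 19.3, 12.1 and 15.7 CPM in the bigenic libraries (1 to 4), against 14.7, 15.6, 16.2 and 19.1 CPM in the control libraries (1 to 4). Its log2 fold change was -0.09 ± 0.14 (SE). On FPKM, Pcyt1a was 6.49, 4.76, 9.17 and 6.45 times the level of Pcyt1b in bigenic libraries 1 to 4, against 6.08, 5.98, 5.95 and 4.68 times in control libraries 1 to 4. Bigenic library 3 had the highest Pcyt1a and the lowest Pcyt1b of its group. Pcyt1a shares 7.6% of its exonic bases with Slc51a on the opposite strand.

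Cept1 (ENSMUSG00000040774.15, chromosome 3, 106502260 to 106547802, minus strand), the phosphotransferase of the endoplasmic reticulum that completes both phosphatidylcholine and phosphatidylethanolamine, was lower in bigenic tissue. It was at 71.2, 56.7, 62.3 and 70.3 CPM in the bigenic libraries (1 to 4), against 87.2, 95.2, 98.4 and 103 CPM in the control libraries (1 to 4). Every bigenic library lay below every control. The means were 65.1 ± 6.88 CPM in bigenic mice and 96.0 ± 6.63 CPM in control mice (SD, n = 4 each), with a log2 fold change of -0.56 ± 0.09 (SE). Dennd2d on the opposite strand covers 24.7% of the exonic bases of Cept1, and itself averaged 1.45 ± 0.30 CPM in bigenic mice and 1.96 ± 0.24 CPM in control mice (SD, n = 4 each).

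Pemt (chromosome 11, 59970614 to 60046489, minus strand) was counted at a low level as well, with 59, 73, 48 and 71 reads in bigenic libraries 1 to 4, against 70, 91, 59 and 97 reads in control libraries 1 to 4. In CPM the values were 1.68, 1.97, 1.44 and 1.97 in bigenic and 1.88, 2.33, 1.63 and 2.41 in control libraries. The groups overlapped, and the log2 fold change of -0.23 ± 0.20 (SE) was close to its error.

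Set side by side per length, the order of the 9 genes differed between the groups at its upper end. In bigenic cerebellum Etnppl came first at 99.3 ± 12.1 FPKM, above Etnk1 at 42.5 ± 1.86, Pcyt2 at 42.1 ± 4.25 and Chka at 38.5 ± 1.17 FPKM (SD, n = 4 each), and the ranges of Etnk1 and Pcyt2, and of Pcyt2 and Chka, overlapped. In control cerebellum Etnk1 came first at 46.6 ± 2.17 FPKM, overlapping in range with Pcyt2 at 42.2 ± 2.30, followed by Etnppl at 34.9 ± 2.91 and Cept1 at 34.1 ± 2.57, which overlapped, and then Chka at 18.5 ± 1.52 FPKM (SD, n = 4 each). Pcyt1a was at 18.5 ± 1.38 FPKM in bigenic and 18.1 ± 0.479 FPKM in control tissue, overlapping in range with Cept1 among bigenic libraries and with Chka among controls. The lowest 3 were the same in both groups, namely Pcyt1b, Pemt and Chkb, at 2.87, 1.39 and 1.20 FPKM in bigenic and at 3.23, 1.72 and 0.676 FPKM in control tissue. Etnppl was 1.88 to 2.63 times the level of Etnk1 in bigenic libraries, against 0.669 to 0.792 times in controls.

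**Figure D3:**
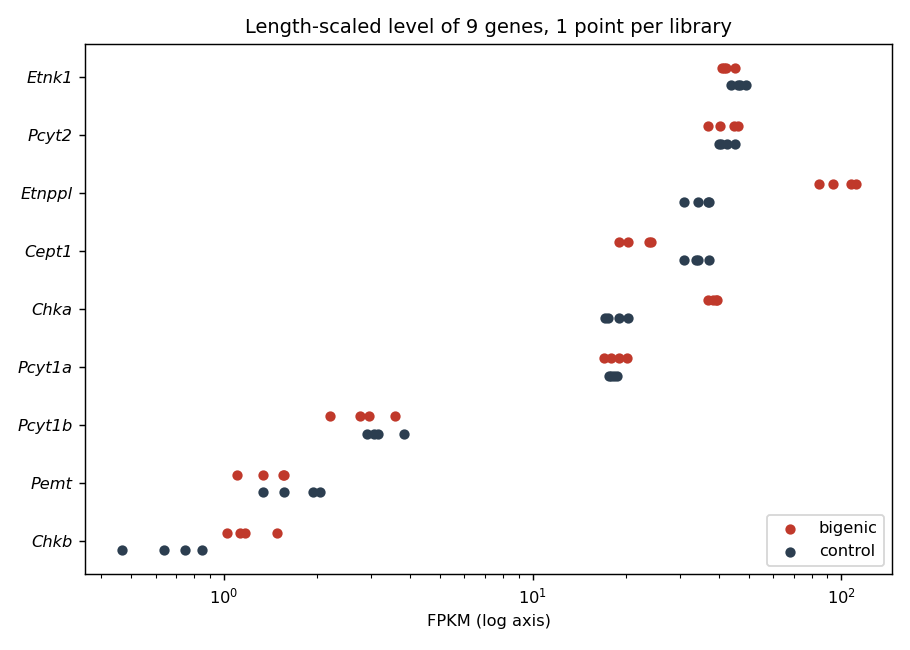
FPKM (x axis, log scale) of the 9 genes, 1 point per library, bigenic above control in each row, ordered by the control mean. Etnppl stands alone at the right in bigenic libraries, at 84.9 to 111 FPKM, while in controls it lies beside Cept1 between 31.0 and 37.2 FPKM.

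Control libraries 2 and 3, and to a lesser extent control library 1, stood apart in choroid plexus markers. Summed over 10 choroid plexus markers the level ranged from 48.9 to 55.6 CPM in bigenic libraries, against 361, 2547, 3183 and 46.7 CPM in the control libraries (1 to 4). Of the 8 markers tested 7 were lower in bigenic tissue, and none of the 10 was at 0 in every library. Without control libraries 2 and 3 the log2 fold change was 1.52 for Etnppl, 1.12 for Chka, 0.88 for Chkb and -0.55 for Cept1, all still past the threshold. Of the other marker lists, 6 microglial markers had 3 lower and 0 higher, with a summed level of 114 to 140.0 CPM in bigenic and 155 to 186 CPM in control libraries, and 6 Purkinje cell markers had 0 past the threshold by edgeR, also by DESeq2 and at an unadjusted p under 0.05. Granule cell markers (6) had 1 higher and 2 lower, oligodendrocyte markers (8) 3 and 1, their precursors (4) 1 and 1, and endothelial markers (6) 0 and 1. Of 5 red blood cell genes 4 were listed at 0 in every library, and Alas2 was lower.

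The 5 protein-coding genes nearest to Etnppl in their pattern over the 8 libraries were Rbm3, Mfsd2a, Adap2, Angptl4 and Cplx3, out of 13847 compared. Likeness was the root mean square difference of log2 CPM, each gene centred on its own mean, and the difference between the groups makes up most of it. Rbm3, a cold-inducible RNA-binding protein, differed from Etnppl by 0.096, and Mfsd2a, a transporter that carries lysophosphatidylcholine with docosahexaenoic acid across the blood-brain barrier, by 0.11. Mfsd2a was at 42.1, 33.9, 49.97 and 44.6 CPM in the bigenic libraries (1 to 4), against 14.7, 13.7, 12.7 and 17.0 CPM in the control libraries (1 to 4). As for Etnppl, bigenic library 2 was the lowest and library 3 the highest of its group. The choice by likeness over these libraries favours such a shared order, so nothing is read from it. Adap2, Angptl4, an inhibitor of lipoprotein lipase, and Cplx3 differed from Etnppl by 0.12, 0.14 and 0.15.

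Around the 9 genes, 59 further genes of choline and ethanolamine metabolism were listed in 10 groups by their step, and 54 were tested. Of these, 19 rose and 10 fell in bigenic cerebellum, or 35.2% and 18.5%, against 21.4% and 22.9% of all genes, with a median log2 fold change of 0.03. Scaling by library size alone gave 14 higher and 14 lower, and log2(FPKM + 1) gave 15 of each. Without control libraries 2 and 3, 8 rose and 4 fell. The 59 genes, like the 9, were listed with earlier results of these data known, so nothing is read from these shares or from the counts per step below. Per step, up to 3 genes past the threshold were named for the smallest p in this same comparison. The adjusted p given below for single genes are therefore a description and no independent evidence. Of the 23 genes that the naming rule gives as past the threshold, 12 were not past it without control libraries 2 and 3. With the Ttr covariate 14 were not past it, Phospho1 and Gnpat among them. Ttr itself differed between the groups, so this covariate shares part of the group difference, and a miss with it is not read as a dependence on choroid plexus. Over all genes 3249 rose and 3485 fell, whereas library size alone gave 2423 higher and 4373 lower, scaling to the upper quartile 2641 and 4105, and log2(FPKM + 1) 2282 and 4047.

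Of the nearest relatives of the 9 genes, Etnk2 and Chpt1 rose. Etnk2, the second ethanolamine kinase, averaged 5.48 ± 0.76 CPM in bigenic mice and 3.02 ± 0.37 CPM in control mice (SD, n = 4 each; log2 fold change 0.86 ± 0.15, SE; edgeR adjusted p = 0.0011). Chpt1, the choline phosphotransferase of the Golgi, was at 258, 218, 257 and 243 CPM in the bigenic libraries (1 to 4), against 186, 189, 198 and 198 CPM in the control libraries (1 to 4) (log2 fold change 0.34 ± 0.07, SE; edgeR adjusted p = 0.0030). Every bigenic library was above every control for both genes. Chpt1 rose while Cept1, which shares its reaction, was lower. Selenoi, the ethanolamine phosphotransferase, was not past the threshold at -0.15 ± 0.11 (SE; edgeR adjusted p = 0.29), and it was at -0.25 and past it without bigenic library 3. Phykpl, the phospholyase most like Etnppl in sequence, averaged 8.31 ± 0.87 CPM in bigenic mice and 7.71 ± 0.19 CPM in control mice (SD, n = 4 each; edgeR adjusted p = 0.45). With the Ttr covariate Chpt1 was not past the threshold.

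Among transporters of choline and ethanolamine 3 of 6 rose and 1, Flvcr2, fell. Slc44a2 rose by 0.43 ± 0.07, Flvcr1 by 0.38 ± 0.09 and Slc44a1 by 0.30 ± 0.07 on the log2 scale (SE; edgeR adjusted p = 0.00054, 0.0070 and 0.0055), and each was higher in all 4 bigenic libraries than in any control. The 3 lipins, phosphatidate phosphatases that supply the diacylglycerol for the last step, rose: Lpin3 by 0.77 ± 0.19, Lpin1 by 0.41 ± 0.08 and Lpin2 by 0.32 ± 0.08 (SE; edgeR adjusted p = 0.0062, 0.0016 and 0.0057). The phosphatidylserine route to phosphatidylethanolamine (Ptdss1, Ptdss2 and Pisd) had 0 of 3 past the threshold by edgeR, also by DESeq2 and at an unadjusted p under 0.05. Without control libraries 2 and 3 Slc44a1, Flvcr1, Lpin2 and Lpin3 were not past the threshold, at 0.33, 0.38, 0.33 and 0.61. Flvcr2, named after its values were seen, was at -0.57 ± 0.14 (SE; edgeR adjusted p = 0.0072), and at -0.51 and not past the threshold without these libraries.

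Enzymes that release or take up the phosphorylated head groups by other ways moved in both directions, with 4 of 12 higher and 3 lower. Phospho1, a phosphatase of phosphoethanolamine and phosphocholine, rose by 0.60 ± 0.12 and Samd8, which makes ceramide phosphoethanolamine, by 0.61 ± 0.09 on the log2 scale (SE; edgeR adjusted p = 0.0022 and 0.00039). Sgms2, a sphingomyelin synthase, was at 7.84, 8.06, 6.82 and 7.67 CPM in the bigenic libraries (1 to 4), against 10.4, 15.4, 17.3 and 9.88 CPM in the control libraries (1 to 4) (log2 fold change -0.80 ± 0.18, SE; edgeR adjusted p = 0.0036). Its 2 highest values were in control libraries 2 and 3, the highest in choroid plexus markers, and without them the log2 fold change was -0.42 and not past the threshold.

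The other genes of this group that passed lie outside the naming rule and were chosen after their values were seen. Enpp2, autotaxin, which makes lysophosphatidic acid and is strongly expressed in choroid plexus, had the largest fall of the 54 genes tested, at 114, 149, 178 and 148 CPM in the bigenic libraries (1 to 4), against 305, 1286, 1679 and 248 CPM in the control libraries (1 to 4) (log2 fold change -2.58 ± 0.66, SE; edgeR adjusted p = 0.018). The values in control libraries 2 and 3 were far above all others, though each bigenic library was also below control libraries 1 and 4. Without control libraries 2 and 3 the log2 fold change was -0.91 and still past the threshold, with the Ttr covariate it was -0.55 and not past it, and without bigenic library 1 it was -2.47 and not past it; the replicate block gave -2.14, not past it either. Enpp6, a choline-specific phosphodiesterase known from new oligodendrocytes, was at 2.88, 8.30, 7.27 and 4.45 CPM in the bigenic libraries (1 to 4), against 7.81, 10.7, 12.05 and 9.93 CPM in the control libraries (1 to 4) (log2 fold change -0.82 ± 0.27, SE; edgeR adjusted p = 0.031). The groups of Enpp6 overlapped, and it was not past the threshold without control libraries 2 and 3 (-0.63), without bigenic library 4 (-0.72) or without control library 2 (-0.80) or 3 (-0.73) alone, nor with no filter on low counts (-0.84). Smpd4, a sphingomyelinase, rose by 0.33 ± 0.10 and Sgms1, a sphingomyelin synthase, by 0.30 ± 0.09 on the log2 scale (SE; edgeR adjusted p = 0.018 and 0.017). The groups of Smpd4 overlapped and those of Sgms1 did not. Neither gene was past the threshold on log2(FPKM + 1) (0.21 and 0.19), when scaled by library size alone (0.25 and 0.21), without control libraries 2 and 3 (0.31 and 0.35) or without control library 4 (0.29 and 0.27), nor was Smpd4 without control library 2 (0.32).

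Methyl donor genes rose in 3 of 4 cases, against 21.4% of all genes. Gnmt, the glycine methyltransferase that consumes S-adenosylmethionine, was at 13.9, 11.4, 12.7 and 14.5 CPM in the bigenic libraries (1 to 4), against 6.39, 5.77, 5.79 and 5.23 CPM in the control libraries (1 to 4) (log2 fold change 1.18 ± 0.12, SE; edgeR adjusted p = 3.4e-05). The groups stood well apart. Mat2b rose by 0.41 ± 0.11 and Ahcy by 0.39 ± 0.11 on the log2 scale (SE; edgeR adjusted p = 0.011 and 0.017). The groups of Mat2b overlapped and those of Ahcy did not. Without control libraries 2 and 3 Mat2b and Ahcy were at 0.42 and 0.37 and not past the threshold, and Ahcy was not past it either without control library 3 (0.35) or with library size alone (0.30). On log2(FPKM + 1) with no filter both missed the threshold, at 0.30 and 0.21.

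The ether lipid and choline oxidation genes that passed fell. Agps and Gnpat, the peroxisomal enzymes that begin plasmalogen synthesis, fell by 0.65 ± 0.09 and 0.40 ± 0.08 on the log2 scale (SE; edgeR adjusted p = 0.00023 and 0.0025), while Far1 and Far2 were not past the threshold. Agps was at 79.7, 72.7, 58.3 and 71.0 CPM in the bigenic libraries (1 to 4), against 109, 111, 113 and 110.0 CPM in the control libraries (1 to 4). Chdh, choline dehydrogenase, fell by 0.78 ± 0.15 and Aldh7a1, which oxidises betaine aldehyde, by 0.25 ± 0.07 (SE; edgeR adjusted p = 0.0018 and 0.017). Aldh7a1 was not past the threshold without control libraries 2 and 3 (-0.19), bigenic library 1 (-0.21), bigenic library 4 (-0.23) or control library 2 (-0.23).

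Acyl chain turnover gave 1 of 6 acyltransferases higher and 1 lower, and 3 of 9 deacylation and diester genes higher and 1 lower. Mboat2 rose by 0.58 ± 0.07 and Lpcat2, known from macrophages, fell by 0.65 ± 0.15 on the log2 scale (SE; edgeR adjusted p = 0.00014 and 0.0046). Gdpd5, a glycerophosphocholine phosphodiesterase, rose by 0.56 ± 0.16, Pnpla7, a lysophospholipase, rose by 0.50 ± 0.17, and the phospholipase Pld2 fell by 0.45 ± 0.10 (SE; edgeR adjusted p = 0.014, 0.034 and 0.0051). The groups of Gdpd5 and of Pnpla7 overlapped. Without control libraries 2 and 3 none of Lpcat2 (-0.51), Gdpd5 (0.49), Pnpla7 (0.53) and Pld2 (-0.38) was past the threshold by edgeR. Pnpla7 was past it in 5 of 18 alternatives: it was not past it with library size alone (0.42), upper-quartile scaling (0.45), no filter on low counts (0.48), the Ttr covariate (0.70) or any fit on FPKM (0.35 to 0.38), nor without bigenic library 1 (0.41), 2 (0.39) or 3 (0.53) or control library 2 (0.46) or 4 (0.44). Gpcpd1, the other gene of its group that passed, named after its values were seen, was at 0.20 ± 0.07 (SE; edgeR adjusted p = 0.044), with overlapping groups, and past the threshold in 3 of 18 alternatives, and among the omissions of 1 library it was past it only without bigenic library 3 (0.25).

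**Figure D4:**
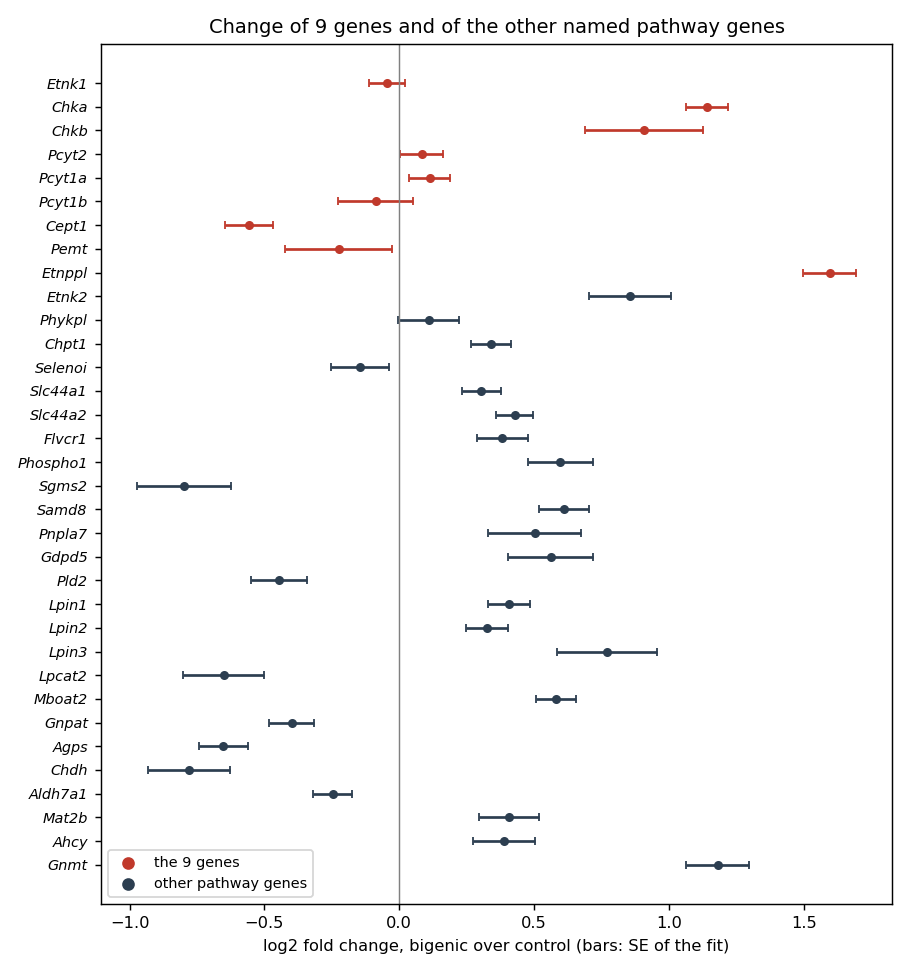
Log2 fold change of bigenic over control cerebellum (x axis) for the 9 genes and 25 further named genes of the pathway, with the standard error of the fit as bars. Etnppl at 1.60, Gnmt at 1.18 and Chka at 1.14 lie farthest to the right, and Sgms2 at -0.80 and Chdh at -0.78 farthest to the left. The 6 pathway genes named after their values were seen, Enpp2 among them, are not plotted.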

How the data were processed

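The authors deposited whole-number read counts per gene and FPKM for the same 24060 rows; per the submitters' processing notes STAR, HTSeq and mm10 were used, with versions and strand setting not given in the sources used here. The deposited FPKM equal the count over 1 fixed length per gene and the library total (100% of nonzero values within 0.1%). The labels disagree on the library kit. Counts were analysed with edgeR 4.0.16 in R 4.3.3: filterByExpr, TMM scaling, robust quasi-likelihood F test, Benjamini-Hochberg over 15186 genes, threshold 0.05. The fit was tested on simulated data. Alternatives used DESeq2 1.42.0, limma 3.58.1 on log2(FPKM + 1) or log2(FPKM + 0.1) with FPKM of at least 0.5 in 4 libraries, other scalings and omissions. The 9 genes and all lists were chosen with earlier results of these data known. Named pathway genes are 4 relatives of the 9 and, per step, up to 3 past the threshold with the smallest p. Of the pathway genes, 3 matched through an older symbol in RefSeq. Coordinates are from GENCODE M21 (GRCm38, the build called mm10), counted from 1. The sample labels number the mice within each group and state no pairing, and the main fit took them as unpaired.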

Additional observations from a re-analysis of the deposited data

Results flagged for a closer look

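Phospho1 was at 12.1 CPM in bigenic library 2, whereas the other 3 bigenic libraries lay between 16.2 and 16.7 CPM, a gap that took 0.893 of the range of the group. Over the 80 groups of 4 libraries looked at, chance alone would set apart about 1 group in 20.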

How the results depend on the processing

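Over 18 alternatives, Etnppl, Chka and Cept1 kept their direction and stayed past the threshold, and Chkb did so except with the Ttr covariate. As the 9 genes were chosen with this comparison known, this describes the dependence on processing and is no further support. Log2 fold changes ranged from 1.02 to 1.19 for Chka, 0.39 to 1.04 for Chkb and -0.64 to -0.50 for Cept1. The other 5 genes were past the threshold in none of them; Pcyt2 and Pcyt1b crossed 0 in some. Pathway genes higher came to 12 on log2(FPKM + 1) with no filter, 8 without control libraries 2 and 3 and 7 with the Ttr covariate, and those lower to 4 and 2 in these last settings. Over all genes, these settings gave 1619 and 1270 higher and 1775 and 1665 lower; fewer samples or residual degrees of freedom entered both fits. Leaving out 1 library at a time gave 15 to 20 pathway genes higher and 8 to 13 lower. Deviations of same-numbered mice correlated across the groups at 0.329, 0.024, 0.166 and 0.063 (numbers 1 to 4). The control that correlated best had the same number for bigenic libraries 1, 3 and 4, and was control library 1 for bigenic library 2. Whether the numbers pair the mice was not settled by these values. With the replicate block 3 of the 9 genes were higher and 1 lower, 20 pathway genes higher and 12 lower, and 3648 of all genes higher and 3795 lower. On log2(FPKM + 1), genes with low values gave smaller changes, 0.49 for Etnk2, 0.33 for Lpin3 and -0.35 for Chdh, all still past the threshold. Chkb and Pemt had the fewest reads of the 9 genes, at most 102 and 97 per library.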
